A study of Homo sapiens with 7 samples.

Results

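Binding of the transcription factor RUNX2 and acetylation of histone H3 at lysine 27 (H3K27ac) were examined at 10 genes of the NOTCH pathway in 2 T-cell acute lymphoblastic leukaemia (T-ALL) cell lines. The genes are the receptors NOTCH1, NOTCH2 and NOTCH3, the nuclear cofactors RBPJ, MAML1 and ZMIZ1, and the targets HES1, HES4, NRARP and DTX1. They were chosen from 19970 protein-coding genes by their place in the pathway, with earlier results of these data known. Every interval of the 4 deposited peak lists that overlapped a gene's RefSeq span or the 50 kb on either side of it was taken. These 10 windows, none of which overlaps another, cover 1921 kb. They held 105 of 42911 RUNX2 peaks and 115 of 63265 H3K27ac regions in KARPAS-45, and 59 of 21027 RUNX2 peaks and 195 of 53263 H3K27ac regions in PER-117. All 10 genes had RUNX2 in the window in both lines, where 85.4% of all protein-coding genes did in KARPAS-45 against 73.1% in PER-117. H3K27ac was in the window of 9 of the 10 in KARPAS-45 (83% of all genes) and of 10 in PER-117 (81%).

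NOTCH receptors sit in the cell membrane and are cut by gamma-secretase after a ligand on a neighbouring cell binds them. The freed intracellular domain enters the nucleus, where it joins the DNA-binding protein RBPJ and a MAML co-activator, while ZMIZ1 is a direct cofactor of NOTCH1 in T cells. In developing thymocytes this signal drives T-lineage commitment, and activating NOTCH1 mutations are frequent in T-ALL. RUNX2 belongs to the RUNX family, whose members bind a short core motif together with CBFB, and H3K27ac marks active promoters and enhancers.

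KARPAS-45, a KMT2A-rearranged line, was grown with 20% fetal bovine serum, and PER-117 with 10%. The labels give no treatment, so the design sets 1 cell line beside the other. Serum differed with the line, so serum and line cannot be told apart. In both, cells were crosslinked in 1.1% formaldehyde (10 min), and fragments of 200 to 300 bp were pulled down using 10 ug of an antibody against RUNX2 or against H3K27ac. There was 1 library for each line and antibody, so no difference between the lines has a replicate check and no p-value is given. Each line stands for 1 leukaemia.

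RUNX2 was called over all or part of the promoters of several members, and the sequences of those promoters are given here. The KARPAS-45 peak covered 126 of 300 bases at NOTCH1, 184 at NOTCH2, 300 at MAML1, 112 at HES1 and 289 at HES4. In PER-117 the peak covered 98 bases at NOTCH2 and 296 at MAML1. The stretch under a peak is not marked in the sequences. RefSeq promoters (GRCh38.p14, 250 bases before to 50 after the start site) were matched by symbol for 8 of the 10 genes, and ZMIZ1 and DTX1 were not analysed here at this level. A RUNX2 peak overlapped the promoter at NOTCH1, NOTCH2, MAML1, HES1 and HES4 in KARPAS-45, that is 5 of 8 where 41.5% of 15811 protein-coding promoters did, and at NOTCH2 and MAML1 in PER-117, that is 2 of 8 where 24.7% did. The 5 promoters follow, written 5′ to 3′ along the gene. They lie at chr9:136545999-136546298 on the minus strand (NOTCH1), chr1:120069613-120069912 on the minus strand (NOTCH2), chr5:179732572-179732871 on the plus strand (MAML1), chr3:194135898-194136197 on the plus strand (HES1) and chr1:1000048-1000347 on the minus strand (HES4). Capitals mark the RUNX core letters TGTGGT or TGCGGT and the RBPJ core letters TGGGAA, searched on both strands.
NOTCH1: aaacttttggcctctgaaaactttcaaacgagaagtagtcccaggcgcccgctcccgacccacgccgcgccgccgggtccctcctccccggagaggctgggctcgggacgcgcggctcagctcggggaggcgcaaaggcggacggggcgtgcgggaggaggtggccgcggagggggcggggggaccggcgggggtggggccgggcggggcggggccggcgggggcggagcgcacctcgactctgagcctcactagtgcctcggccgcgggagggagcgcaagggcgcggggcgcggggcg
NOTCH2: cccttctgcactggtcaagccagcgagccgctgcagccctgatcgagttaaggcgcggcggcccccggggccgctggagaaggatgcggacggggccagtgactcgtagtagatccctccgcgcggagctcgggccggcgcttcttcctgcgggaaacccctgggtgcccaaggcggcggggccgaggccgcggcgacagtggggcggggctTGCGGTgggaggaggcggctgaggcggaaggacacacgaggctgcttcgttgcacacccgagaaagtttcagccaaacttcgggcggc
MAML1: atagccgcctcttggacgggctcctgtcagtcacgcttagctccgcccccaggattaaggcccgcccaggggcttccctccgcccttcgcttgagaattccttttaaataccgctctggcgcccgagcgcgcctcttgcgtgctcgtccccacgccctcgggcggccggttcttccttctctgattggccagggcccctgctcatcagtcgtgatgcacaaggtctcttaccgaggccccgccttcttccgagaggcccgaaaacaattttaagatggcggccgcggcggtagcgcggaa
HES1: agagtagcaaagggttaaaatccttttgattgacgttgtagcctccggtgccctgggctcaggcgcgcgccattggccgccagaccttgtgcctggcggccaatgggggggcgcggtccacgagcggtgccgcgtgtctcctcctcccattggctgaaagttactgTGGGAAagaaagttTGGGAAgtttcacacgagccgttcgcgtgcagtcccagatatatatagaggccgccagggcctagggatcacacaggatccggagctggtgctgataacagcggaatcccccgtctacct
HES4: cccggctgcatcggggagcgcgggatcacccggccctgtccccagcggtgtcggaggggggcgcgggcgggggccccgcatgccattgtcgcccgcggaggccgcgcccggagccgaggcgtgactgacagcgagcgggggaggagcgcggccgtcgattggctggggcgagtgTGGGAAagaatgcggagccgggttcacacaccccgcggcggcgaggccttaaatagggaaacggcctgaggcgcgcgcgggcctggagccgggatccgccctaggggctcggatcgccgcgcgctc

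NOTCH2 held the RUNX core TGCGGT once, 38 bp upstream of the start site, inside the peaks of both lines. The nearest base of these letters was 15 bp from the KARPAS-45 summit and 202 bp from the PER-117 summit. HES1 held the RBPJ core TGGGAA at 84 and 70 bp upstream, outside the RUNX2 peaks of both lines. HES4 held it once, 76 bp upstream, inside the KARPAS-45 RUNX2 peak and 15 bp from its summit. Among all 15811 protein-coding promoters of this length, TGTGGT occurred in 10.8%, TGCGGT in 8.61% and TGGGAA in 22.7%, so a match in a few promoters is common and describes only the letters of these windows.

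The cells carried H3K27ac at T-lineage genes; over all protein-coding genes, 61% had it within 1 kb of a gene end in KARPAS-45 against 55.5% in PER-117. Of 11 T-lineage markers, 11 had it within 1 kb of a gene end in KARPAS-45 versus 9 in PER-117, where CD1A and CD5 lacked it. Of the B-lineage markers, CD79A and CD79B had it in each line, while PAX5, EBF1 and MS4A1 had none. Of 6 myeloid markers 1 had it in each line (CSF3R), and of 5 erythroid markers 0 in KARPAS-45 against 1 in PER-117 (HBA1).

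RUNX2 peaks and H3K27ac were denser around the NOTCH pathway genes than around a typical gene of the same line. The genes were chosen with earlier results of these data known, and the difference was not tested. The median window of the 10 held 7.55 RUNX2 peaks per 100 kb in KARPAS-45, where the median over all protein-coding genes was 2.60. In PER-117 it held 3.90 per 100 kb, where the median over all genes was 1.10. H3K27ac covered a median of 22.7% of the window in KARPAS-45 (7.17% over all genes) versus 10.2% in PER-117 (3.33% over all genes). RUNX2 density was above the gene median at 8 members in KARPAS-45 against 9 in PER-117. The exceptions were NOTCH2 and RBPJ in KARPAS-45 and RBPJ in PER-117. The members span a wide range, between 0.387 peaks per 100 kb at NOTCH2 and 14.8 at HES4 in KARPAS-45, and between 0.931 at RBPJ and 6.92 at HES4 in PER-117. Only 0.180% of protein-coding genes in KARPAS-45 versus 2.87% in PER-117 had a window as dense as that of HES4, which lies among closely packed genes near the end of chromosome 1.

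**Figure D1:**
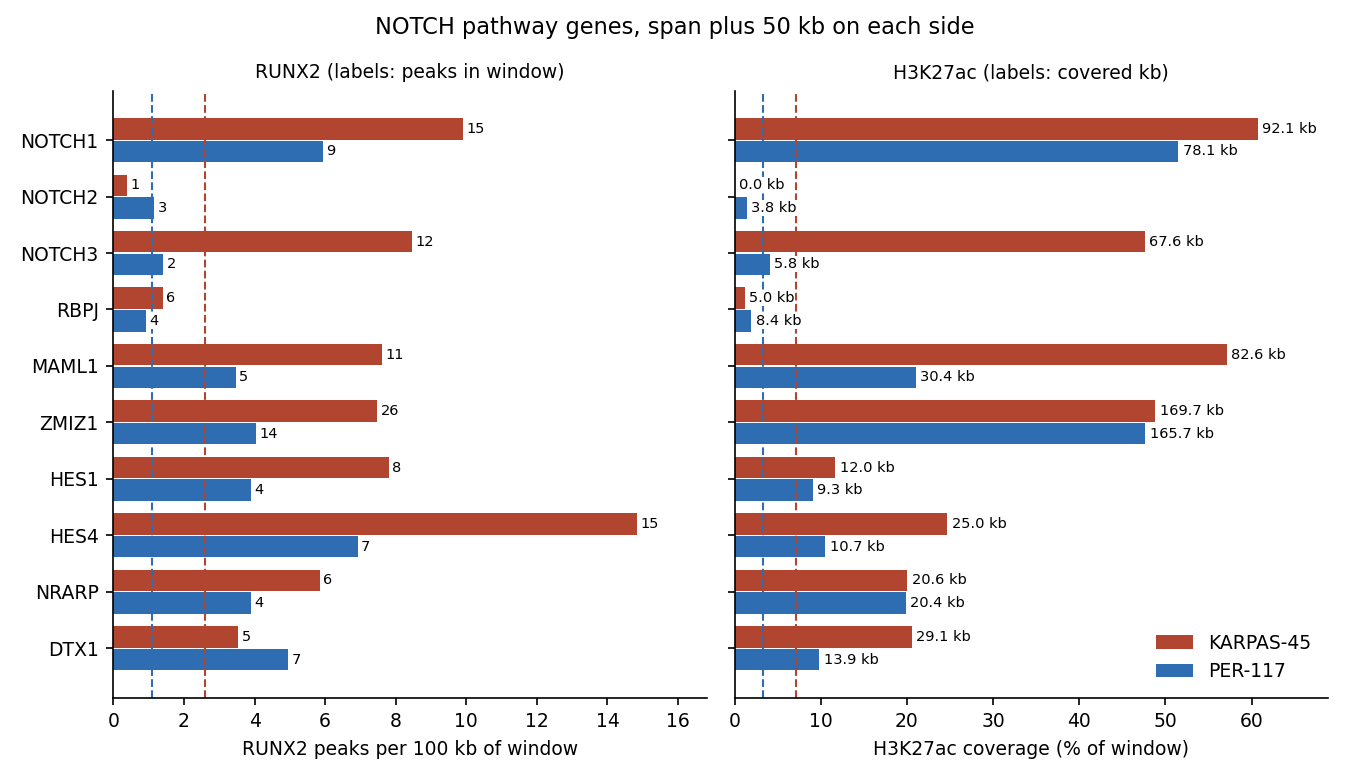
RUNX2 peaks per 100 kb of window (left) and percent of the window covered by H3K27ac (right) for each gene, KARPAS-45 in red above PER-117 in blue; dashed lines are the medians over all protein-coding genes of that line (2.60 peaks per 100 kb and 7.17% in KARPAS-45; 1.10 peaks per 100 kb and 3.33% in PER-117). The NOTCH3 bars are far apart between the lines (67.6 kb in KARPAS-45 against 5.79 kb in PER-117 covered by H3K27ac). The ZMIZ1 acetylation bars, drawn from the full lists, are nearly equal (169.7 kb in KARPAS-45 against 165.7 kb in PER-117).

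Peak number was higher in KARPAS-45 at 8 members and lower at NOTCH2 and DTX1. Of all protein-coding genes, 66.4% had more and 10.3% fewer RUNX2 peaks in the window in KARPAS-45 than in PER-117. The KARPAS-45 list is the longer one, and when it was limited to its strongest peaks at the length of the PER-117 list the order of several members turned. KARPAS-45 then had more peaks at NOTCH3 (3 against 2), RBPJ (5 against 4) and HES4 (9 against 7), as many at MAML1 (5) and ZMIZ1 (14), and fewer at NOTCH1 (6 against 9), NOTCH2 (1 against 3), HES1 (2 against 4), NRARP (3 against 4) and DTX1 (2 against 7). H3K27ac covered more of the window in KARPAS-45 at 8 members than in PER-117, and less at NOTCH2 and RBPJ, and 69% of all protein-coding genes had more in KARPAS-45. The KARPAS-45 H3K27ac list also covers more bases, and it was limited to its regions of highest −log10 q with as many covered bases as PER-117 had, a setting chosen after the data were seen. KARPAS-45 then had more at NOTCH1 (91.8 kb against 78.1 kb), NOTCH3 (49.5 kb against 5.79 kb) and MAML1 (40.9 kb against 30.4 kb). It had less at ZMIZ1 (42.2 kb against 165.7 kb) and DTX1 (7.75 kb against 13.9 kb), and 0 kb at HES1, HES4 and NRARP, where PER-117 had 9.30, 10.7 and 20.4 kb. A limit by width kept only regions of 6.10 kb or more in KARPAS-45, so it removes narrow regions whatever their strength; NOTCH3 kept 51.8 kb under it. Peak numbers and lengths below are those of the full lists. The full H3K27ac list reaches down to a −log10 q of 0.43 in KARPAS-45 against 1.01 in PER-117. A fold enrichment is the authors' value for a peak over its background, and it is used to rank a peak within its own list, where it is given as the strongest percent of peaks it belongs to. Some folds of both lists are printed together without ranks. With or without ranks, they are not compared as binding strength between the lines.

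NOTCH1, the receptor most often mutated in T-ALL, carried RUNX2 at the same strong intragenic position in both lines. Its window (span chr9:136494433-136546048, minus strand) held 15 RUNX2 peaks in KARPAS-45 versus 9 in PER-117. The strongest lay 16.1 kb downstream of the start site, at chr9:136529622-136530126 in KARPAS-45, with a fold of 34.9 (strongest 1.61% of the list) in KARPAS-45 against 19.9 (strongest 3.22%) in PER-117. The 2 summits were 1 bp apart and lay inside H3K27ac in both lines. A further shared peak 42.2 kb upstream of the start site had a fold of 24.0 (strongest 4.70%) in KARPAS-45 versus 8.47 (strongest 25.0%) in PER-117. At the start site itself the lines differed: KARPAS-45 had a peak with a summit 245 bp upstream and a fold of 10.0, and PER-117 had none. The promoter was nevertheless acetylated over all 300 bp in both lines. H3K27ac covered 92.1 kb of the window in 14 regions in KARPAS-45, and 78.1 kb in 41 regions in PER-117. The region over the start site was 41.4 kb wide in KARPAS-45 and 9.87 kb wide in PER-117.

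NOTCH3, a receptor that is itself induced by NOTCH signalling in T cells, was the member where H3K27ac coverage lay furthest apart between the lines. Its window (span chr19:15159038-15200995, minus strand) held 12 RUNX2 peaks in KARPAS-45 against 2 in PER-117. The strongest KARPAS-45 peak lay inside the gene, 23.3 kb downstream of the start site at chr19:15177493-15177948, with a fold of 31.2 (strongest 2.22%), and no PER-117 peak overlapped it. Its summit lay inside H3K27ac in KARPAS-45 and outside it in PER-117. Of the 12 KARPAS-45 peaks, 2 were shared. The shared peak near the start site, 3.16 kb downstream in KARPAS-45 and 3.42 kb downstream in PER-117, had a fold of 12.3 (strongest 18.1%) in KARPAS-45 versus 4.14 (strongest 77.8%) in PER-117, and it was acetylated in both. H3K27ac covered 67.6 kb in KARPAS-45 against 5.79 kb in PER-117. This is 47.6% of the window in KARPAS-45 versus 4.08% in PER-117, a difference of 43.5 percentage points that 1.63% of protein-coding genes reached or passed.

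At NOTCH2, a receptor needed for marginal-zone B cells in mice, PER-117 had more peaks and more H3K27ac. The window (span chr1:119911553-120069662, minus strand) held 1 RUNX2 peak in KARPAS-45 against 3 in PER-117. The KARPAS-45 peak sat on the start site, with its summit 18 bp upstream and a fold of 12.0 (strongest 19.1%), over the promoter printed above. The PER-117 peak at the same place had a fold of 3.71 (strongest 87.3%). No H3K27ac was called anywhere in the window in KARPAS-45, where the nearest region lay 105997 bp from the start site, whereas PER-117 had 5 regions covering 3.75 kb, the nearest 9 bp from the start site. A window without H3K27ac in KARPAS-45 and with it in PER-117 was found for 789 protein-coding genes (3.95%). The other PER-117 peaks, with folds of 6.98 and 5.46, lay at ADAM30, a neighbouring metalloprotease-family gene, and were acetylated in PER-117.

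**Figure D2:**
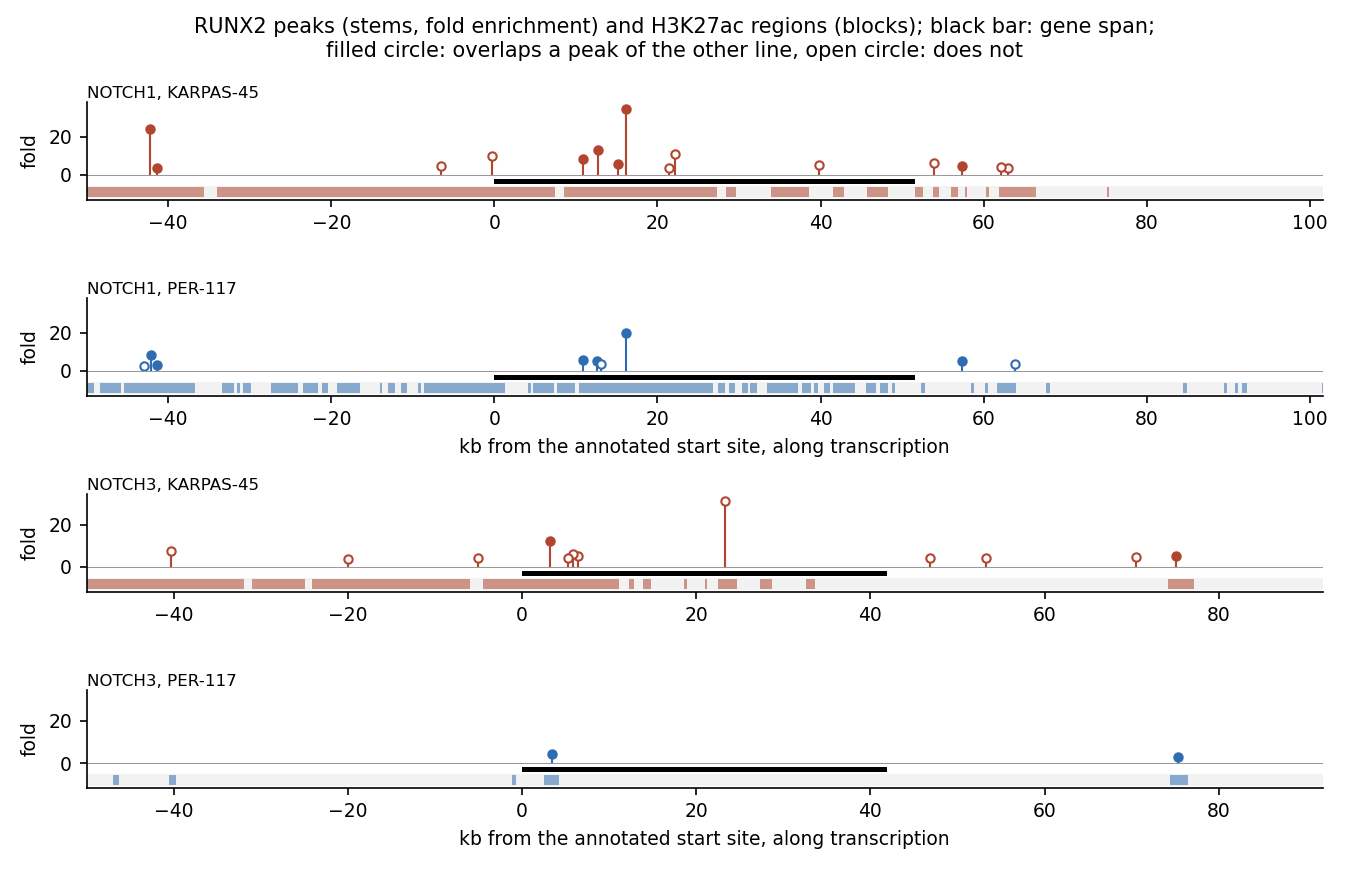
Maps of the receptor windows, KARPAS-45 above PER-117: stems are RUNX2 peaks (height is the authors' fold enrichment, filled where a peak of the other line overlaps, open where none does), blocks are H3K27ac regions and the black bar is the gene span, with distance in kb from the start site along transcription. The tall filled stem inside NOTCH1 stands in both lines (34.9 in KARPAS-45 versus 19.9 in PER-117), while the tall stem inside NOTCH3 stands in KARPAS-45 (31.2) and has no counterpart in PER-117.

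RBPJ, the DNA-binding partner of cleaved NOTCH, had few RUNX2 peaks for the length of its window, 6 in KARPAS-45 against 4 in PER-117 over 429.7 kb (span chr4:26105449-26435131, plus strand). The strongest lay deep inside the gene, 209.6 kb downstream of the start site in KARPAS-45 versus 209.5 kb in PER-117, with a fold of 32.6 (strongest 1.98%) in KARPAS-45 against 10.6 (strongest 16.2%) in PER-117. Neither line had H3K27ac at that summit. A second shared peak, 157.3 kb downstream of the start site in both lines, had a fold of 12.6 (strongest 17.7%) in KARPAS-45 versus 6.98 (strongest 35.6%) in PER-117 and was acetylated in both. The table gives 1 start site per gene, and other start sites of RBPJ were not analysed here. H3K27ac covered 5.00 kb in KARPAS-45 against 8.40 kb in PER-117. At a −log10 q of 2 or more, 0 kb remained in KARPAS-45 and 7.11 kb in PER-117.

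MAML1, a co-activator that binds the NOTCH and RBPJ complex, had RUNX2 at its start site in both lines. The summit lay 128 bp upstream in KARPAS-45, with a fold of 6.12 (strongest 52.5%), and 158 bp upstream in PER-117, with a fold of 4.80 (strongest 64.7%). The peak covered 300 of the 300 promoter bases in KARPAS-45 against 296 in PER-117, and that promoter was acetylated throughout in both. The window (span chr5:179732822-179777283, plus strand) held 11 peaks in KARPAS-45 versus 5 in PER-117, and each of the 5 was shared. Its strongest peak was at LTC4S, an enzyme of leukotriene synthesis, with a fold of 10.8 in KARPAS-45 against 7.08 in PER-117. H3K27ac covered 82.6 kb in KARPAS-45 versus 30.4 kb in PER-117.

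ZMIZ1 had the most RUNX2 peaks of the 10 genes, 26 in KARPAS-45 against 14 in PER-117 (span chr10:79068966-79316519). Its window was long (347.6 kb), and its density was 7.48 peaks per 100 kb in KARPAS-45 against 4.03 in PER-117. In both lines HES4 and NOTCH1, among others, were denser (HES4 14.8 and NOTCH1 9.89 in KARPAS-45, 6.92 and 5.94 in PER-117). Acetylation was broad in both lines, with 169.7 kb of H3K27ac in 36 regions in KARPAS-45 and 165.7 kb in 77 regions in PER-117. The widest region spanned 58.9 kb in KARPAS-45 (fold 2.04, −log10 q 4.21) versus 19.9 kb in PER-117 (fold 9.34, −log10 q 33.5). With the KARPAS-45 regions of highest −log10 q at the PER-117 covered length, ZMIZ1 kept 42.2 kb in KARPAS-45. In their own line 25 of 26 KARPAS-45 summits and 14 of 14 PER-117 summits were acetylated. Of these peaks 9 in each line were shared. Inside the gene, 69.0 kb above its lower end, the shared peak at chr10:79137574-79138206 (KARPAS-45 coordinates) had a fold of 25.7 (strongest 3.91%) in KARPAS-45 against 16.3 (strongest 5.86%) in PER-117, with summits 9 bp apart. Beyond the upper end, by 1.41 kb in KARPAS-45 versus 1.36 kb in PER-117, a shared peak was the strongest member peak of PER-117, with a fold of 17.5 (strongest 9.49%) in KARPAS-45 against 25.5 (strongest 1.32%) in PER-117. At the lower end of the gene KARPAS-45 had a peak with a fold of 12.9, its summit 97 bp from the end, and PER-117 had none there. The peak at the upper end was shared, with folds of 5.58 in KARPAS-45 versus 4.93 in PER-117.

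**Figure D3:**
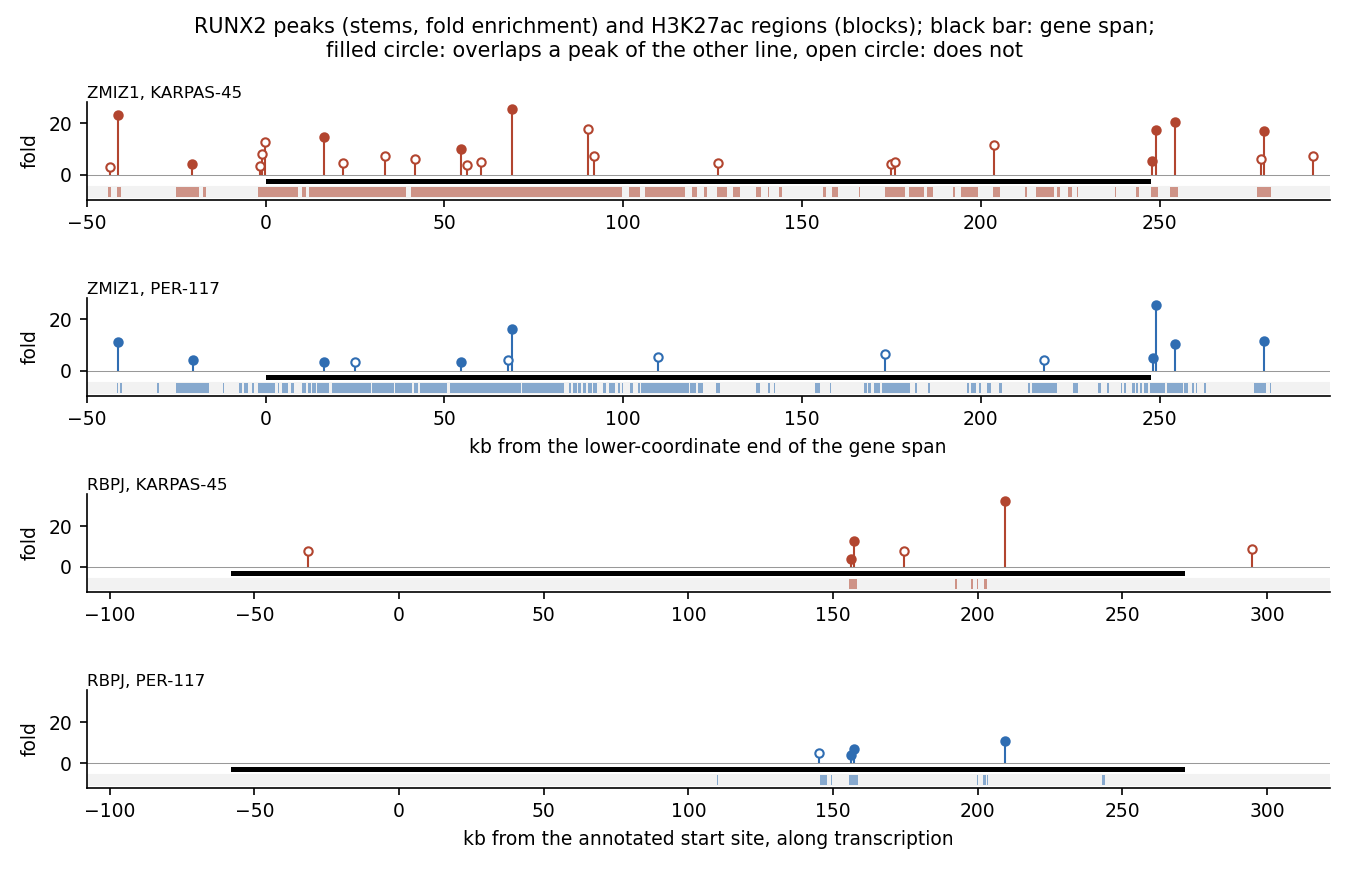
Maps of the ZMIZ1 and RBPJ windows, KARPAS-45 above PER-117, drawn as for the receptors; distance is in kb from the lower-coordinate end of the span for ZMIZ1 and from the start site for RBPJ. ZMIZ1 has H3K27ac blocks along most of its first 100 kb in both lines, while the tall RBPJ stem (32.6 in KARPAS-45 against 10.6 in PER-117) has no block beneath it in either line.

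HES1, a repressor of the basic helix-loop-helix family and a direct NOTCH target, had RUNX2 just upstream of the gene in both lines. The peak had a fold of 27.04 (strongest 3.37%) in KARPAS-45, with its summit 1.63 kb upstream of the start site, and 12.7 (strongest 10.99%) in PER-117, 1.52 kb upstream. Both summits were acetylated in both lines. A peak 4.80 kb upstream, with a fold of 21.9 (strongest 5.84%), was called in KARPAS-45 and not in PER-117, and PER-117 had no H3K27ac at its summit. Within the gene a shared peak had a fold of 6.28 in KARPAS-45 versus 4.82 in PER-117. The window (span chr3:194136148-194138732, plus strand) held 8 peaks in KARPAS-45 against 4 in PER-117. H3K27ac formed 1 region of 10.2 kb over the start site in KARPAS-45. In PER-117 the widest of 8 regions was 2.04 kb, and the nearest lay 627 bp from the start site.

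HES4, another repressor of that family, had 15 peaks in KARPAS-45 versus 7 in PER-117 (span chr1:998964-1000097, minus strand). The PER-117 peak of highest fold lay 5.06 kb upstream of the start site at chr1:1004881-1005324, with a fold of 9.61 (strongest 27.9%) in KARPAS-45 against 13.4 (strongest 9.64%) in PER-117. The summits were 11 bp apart and acetylated in both lines. Over the promoter KARPAS-45 had a peak with a fold of 6.97, 91 bp upstream, and PER-117 had none. PER-117 had a peak 1.48 kb downstream of the start site instead, with a fold of 5.39, which no KARPAS-45 peak overlapped. In KARPAS-45 the strongest peak of the window was at the neighbours NOC2L and KLHL17, where the fold was 16.6 in KARPAS-45 versus 6.05 in PER-117.

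NRARP, a feedback inhibitor that destabilises cleaved NOTCH, had nearby the RUNX2 peak of highest fold among the KARPAS-45 peaks of the 10 windows. It lay 30.7 kb downstream of the NRARP start site, inside NELFB, a subunit of the negative elongation factor, at chr9:137271250-137271787 in KARPAS-45. The fold was 39.8 (strongest 0.993%) in KARPAS-45 against 11.9 (strongest 12.6%) in PER-117. The summits were 25 bp apart and lay outside H3K27ac in KARPAS-45 and inside it in PER-117. In the NRARP gene body KARPAS-45 had a peak with a fold of 8.02, acetylated in neither line, and PER-117 had none. The window (span chr9:137299631-137302271, minus strand) held 6 peaks in KARPAS-45 versus 4 in PER-117, and H3K27ac covered 20.6 kb in KARPAS-45 against 20.4 kb in PER-117. The nearest region was 311 bp from the start site in KARPAS-45 and 1166 bp in PER-117.

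DTX1, an E3 ubiquitin ligase that acts on NOTCH signalling and is itself a target, had 5 peaks in KARPAS-45 versus 7 in PER-117 (span chr12:113056730-113098025). The strongest was shared and intragenic, 29.8 kb above the lower end in KARPAS-45 against 30.2 kb in PER-117. Its fold was 21.2 (strongest 6.31%) in KARPAS-45 versus 13.8 (strongest 8.86%) in PER-117, with summits 384 bp apart. The KARPAS-45 summit lay inside H3K27ac of both lines, and the PER-117 summit inside that of KARPAS-45 but not of PER-117. The PER-117 summit fell in a gap between neighbouring PER-117 regions, and the peak itself overlapped the region on each side. At the upper end KARPAS-45 had a peak with a fold of 5.16 and PER-117 had none. H3K27ac covered 29.1 kb in KARPAS-45 against 13.9 kb in PER-117.

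**Figure D4:**
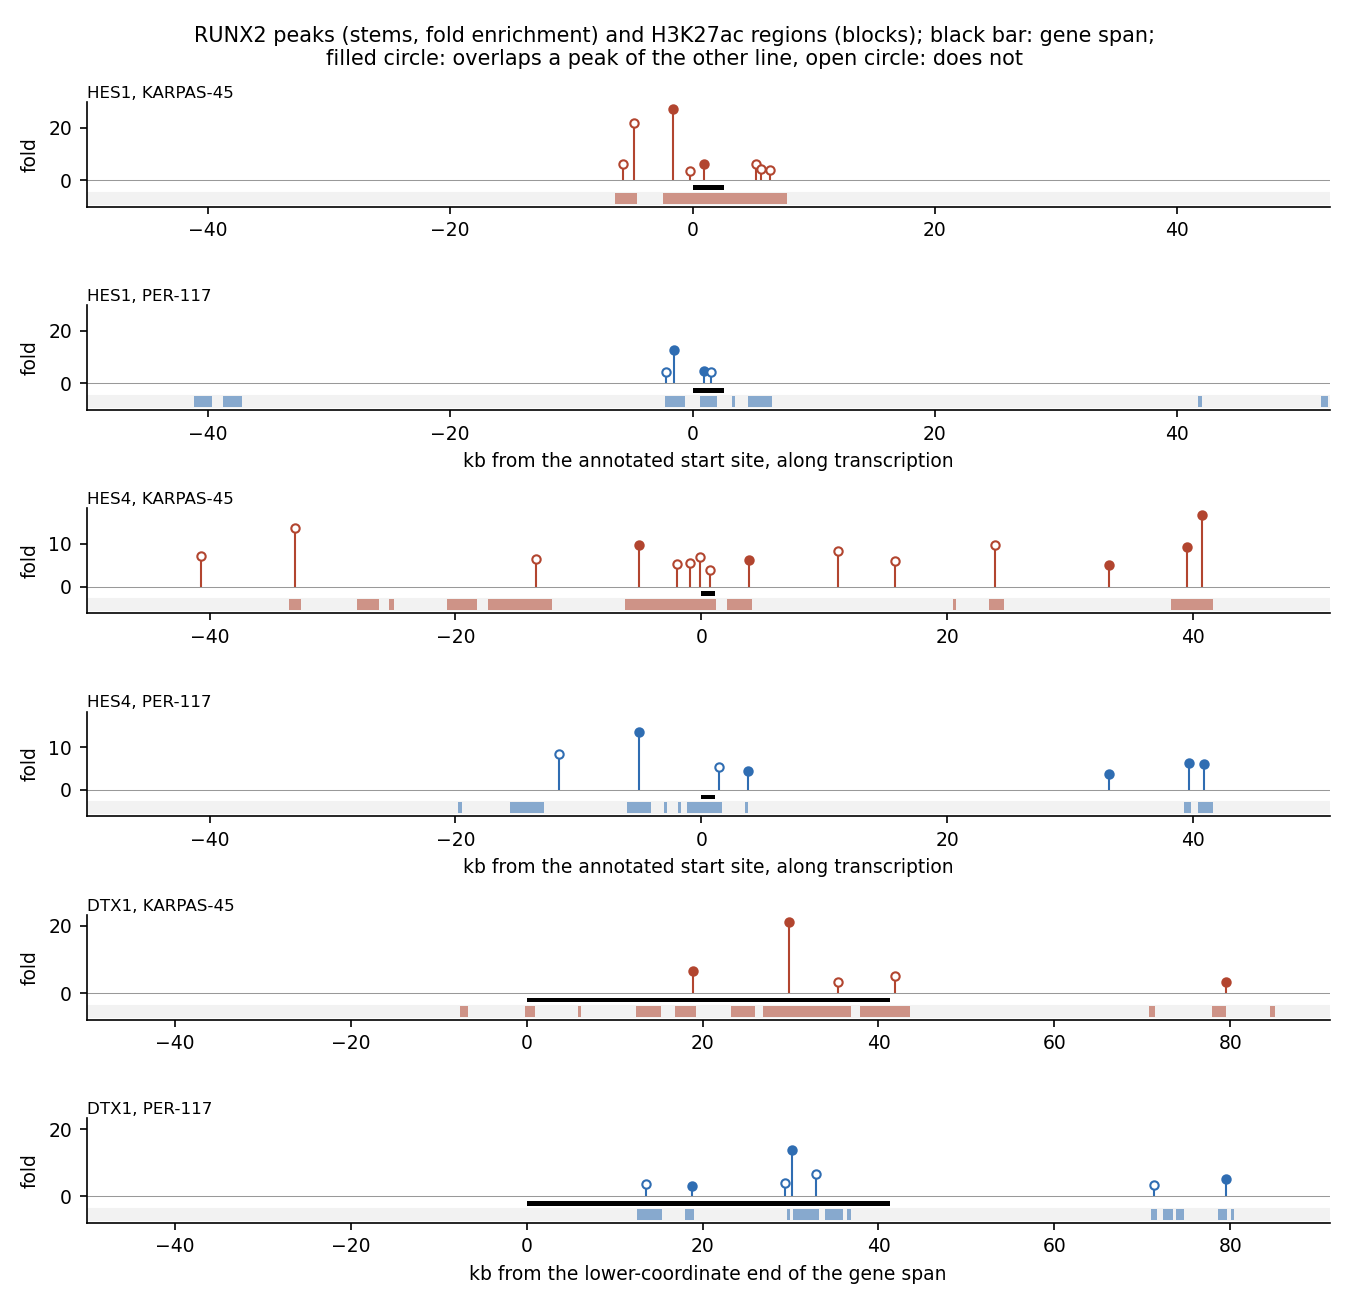
Maps of the windows of the target genes HES1, HES4 and DTX1, KARPAS-45 above PER-117, drawn as for the receptors, with distance in kb. NRARP is not drawn. The tall filled stem upstream of HES1 (27.04 in KARPAS-45 versus 12.7 in PER-117) stands in both lines. The open stem further upstream of HES1 (21.9) stands in KARPAS-45.

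Set side by side, 7 of the 10 genes had RUNX2 within 1 kb of a gene end in KARPAS-45, where 48.3% of all protein-coding genes did, and 5 in PER-117, where 32.5% did. The 5 with RUNX2 there in both lines, at either end, were NOTCH2, MAML1, ZMIZ1, HES1 and HES4. NOTCH1 and DTX1 had it in KARPAS-45, and NOTCH3, RBPJ and NRARP had it in neither line. At HES4 the PER-117 peak lay at the end away from the start site and overlapped no KARPAS-45 peak. At ZMIZ1 PER-117 had a peak at the upper end only. Of the 8 genes with a listed start site, NOTCH2, MAML1 and HES1 had RUNX2 within 1 kb of it in both lines. At a −log10 q of 10 or more, 6 of the 10 had a gene-end peak in KARPAS-45 against 0 in PER-117. With the KARPAS-45 list limited to the PER-117 number, 5 had one in KARPAS-45 against 5 in PER-117. H3K27ac was at a gene end of 8 members in KARPAS-45 (61% of all genes) versus 7 in PER-117 (55.5%). With the KARPAS-45 regions of highest −log10 q at the PER-117 covered length, 5 members had it in KARPAS-45. Shares of all genes were not computed for these stricter or limited lists, or for both lines together. Those counts are therefore not results about these genes. In the full lists, RBPJ lacked gene-end H3K27ac in both lines, NOTCH2 in KARPAS-45, and NRARP and DTX1 in PER-117. A gene end here is an end of the whole span, so a start site inside the span, as at RBPJ, is not counted.

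Most member peaks lay away from the genes' ends. By summit, 11 of the 105 KARPAS-45 peaks lay at a member's end and 36 elsewhere inside a member. A further 15 lay at the end of another protein-coding gene, 13 inside another gene and 30 outside protein-coding genes. Of the 59 PER-117 peaks, 5 lay at a member's end, 23 inside a member, 10 at another gene's end, 8 inside another gene and 13 outside.

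The strongest KARPAS-45 peak of the window overlapped a PER-117 peak at 9 of 10 members, all but NOTCH3. It did so in 67.9% of 14180 protein-coding windows with RUNX2 in both lines. The strongest PER-117 peak overlapped a KARPAS-45 peak at 9 of 10 members, all but NOTCH2, and in 81.7% of those windows. The strongest peaks of the 2 lines overlapped each other at 6 members (NOTCH1, RBPJ, MAML1, HES1, NRARP and DTX1) and in 44.2% of those windows. With 10 genes, the PER-117 count and the overlap of the strongest peaks are near those shares. The KARPAS-45 count is above its share, which was not tested. None of these counts is a result about these genes. Over all member peaks the share in common was also near that of the lists. It was 37.1% of 105 peaks in KARPAS-45 (Wilson 95% interval 28.5 to 46.7; 31.2% of the list) and 64.4% of 59 in PER-117 (51.7 to 75.4; 63.6% of the list). In the 39 overlapping pairs the summits were a median of 41 bp apart.

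**Figure D5:**
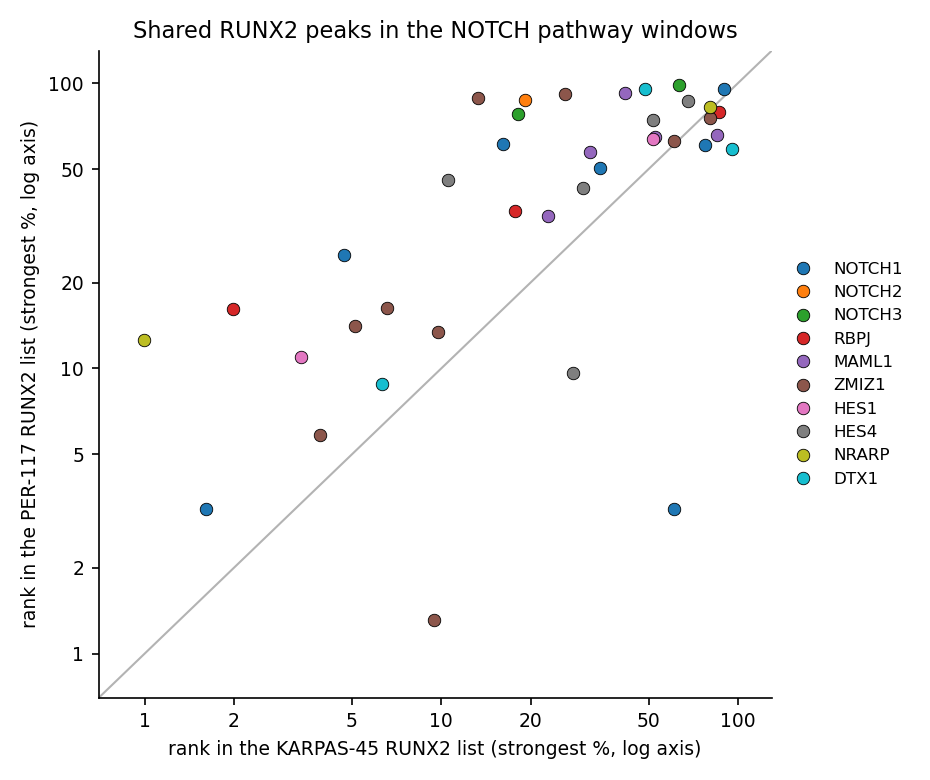
The 39 overlapping RUNX2 pairs in the member windows, by the rank of the peak in the KARPAS-45 list (x axis) and in the PER-117 list (y axis), each as the strongest percent of its list on a log axis; points are coloured by gene and the grey line marks equal rank. The NRARP point at the far left is the peak inside NELFB (0.993% in KARPAS-45 against 12.6% in PER-117), and the lowest point is the ZMIZ1 peak beyond the upper end (9.49% in KARPAS-45 versus 1.32% in PER-117).

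RUNX2 summits in these windows lay in acetylated chromatin at 86 of 105 peaks in KARPAS-45, or 81.9% (73.5 to 88.1), where 65.2% of the list did. In PER-117 it was 51 of 59, or 86.4% (75.5 to 93.0), where 75.6% of the list did. Without ZMIZ1, which alone held 25 of the KARPAS-45 and 14 of the PER-117 acetylated summits, the shares were 77.2% of 79 summits in KARPAS-45 against 82.2% of 45 in PER-117. In KARPAS-45 the share was 67.6% with regions at a −log10 q of 2 or more (54.2% of the list). With the regions of highest −log10 q at the PER-117 covered length it was 31.4%, close to the 29.2% of the list. Many peaks found in 1 line lay where the other line was acetylated without a RUNX2 call. In their own line 52 of 66 such KARPAS-45 peaks (78.8%, where 59.6% of the list were) and 17 of 21 such PER-117 peaks (81.0%, where 74.4% were) lay in H3K27ac. In the other line this held for 35 of 66 such KARPAS-45 peaks, or 53.0% (41.2 to 64.6), where 26.9% of the list did, and for 15 of 21 such PER-117 peaks, or 71.4% (50.04 to 86.2), where 35.9% of the list did. ZMIZ1 gave 14 of the 35 in KARPAS-45 and 5 of the 15 in PER-117, and without it the shares were 42.9% of 49 KARPAS-45 peaks and 62.5% of 16 PER-117 peaks. Without ZMIZ1 and NOTCH1 they were 36.6% of 41 KARPAS-45 peaks and 53.8% of 13 PER-117 peaks. Of the peaks found in KARPAS-45 only, 1 of 10 at NOTCH3 and 0 of 3 at RBPJ lay inside PER-117 H3K27ac. Peaks of a gene share their locus and are not independent, so the intervals cover counting error only.

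The remaining genes of the pathway carried RUNX2 at a gene end more often than genes at large. Of 68 such genes, 49 had it in KARPAS-45 (72.1%, where 48.3% of all genes did) against 33 in PER-117 (48.5%, where 32.5% did). In both lines 30 had it, and the all-gene share for both lines was not computed. These lists were also chosen with earlier results of these data known. H3K27ac was at a gene end of 61 of the 68 in KARPAS-45 versus 56 in PER-117. Over all genes, 61% had it in KARPAS-45 against 55.5% in PER-117. The smaller groups below are described, and their counts are not results about a group. Their folds are given without ranks and are not compared between the lines.

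Of 6 ligand genes, 3 had such a peak in KARPAS-45 (DLL1, JAG1 and JAG2, with folds of 4.40, 7.61 and 7.61) against 1 in PER-117 (DLL4, 11.6), where 48.3% of all genes had one in KARPAS-45 against 32.5% in PER-117. Among 15 genes, the receptor NOTCH4 and genes of receptor processing and glycosylation, 11 had one in KARPAS-45 versus 10 in PER-117. NOTCH4 had folds of 14.4 in KARPAS-45 against 5.04 in PER-117. APH1A, a subunit of gamma-secretase, had folds of 12.3 in KARPAS-45 against 14.0 in PER-117. LFNG, a fringe glycosyltransferase that modifies NOTCH, had none in KARPAS-45 and a peak in PER-117 (12.7), and POFUT1, which adds O-fucose to NOTCH, had one in KARPAS-45 (15.7) and none in PER-117.

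Of 13 genes of ligand endocytosis and NOTCH turnover, 10 had a gene-end peak in KARPAS-45 (76.9%) versus 6 in PER-117 (46.2%). Over all genes, 48.3% had one in KARPAS-45 against 32.5% in PER-117. The ubiquitin ligase ITCH had folds of 15.8 in KARPAS-45 against 10.3 in PER-117, FBXW7, which targets cleaved NOTCH for degradation, had 7.05 in KARPAS-45 against 6.40 in PER-117, and MIB2, a ligase that acts on ligands, had 31.4 in KARPAS-45 and none in PER-117. Of 8 co-activator genes 5 had one in KARPAS-45 (62.5%) against 5 in PER-117 (62.5%), and 4 had one in both lines. CREBBP had it in KARPAS-45 and MAML3 in PER-117. The acetyltransferase EP300 had folds of 11.2 in KARPAS-45 versus 8.84 in PER-117. Of 11 co-repressor genes 9 had one in KARPAS-45 (81.8%) against 5 in PER-117 (45.5%). Among them was the deacetylase HDAC1 (11.4 in KARPAS-45 and 8.61 in PER-117). NCOR1 had a fold of 8.87 in KARPAS-45 and no peak in PER-117.

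Of 15 further targets, 11 had a gene-end peak in KARPAS-45 (73.3%, where 48.3% of all genes did) versus 6 in PER-117 (40%, where 32.5% did). The PER-117 count is near that share. PTCRA, the pre-T-cell receptor alpha chain, had folds of 45.4 in KARPAS-45 against 4.26 in PER-117. CCND3, a D-type cyclin, had 7.75 in KARPAS-45 versus 33.6 in PER-117. IL7R, the interleukin-7 receptor, had 5.70 in KARPAS-45 against 4.74 in PER-117. SHQ1, a ribonucleoprotein assembly factor, had 32.1 in KARPAS-45 against 8.05 in PER-117. The repressor genes HES2, HES5 and HES6 had a peak in KARPAS-45 (6.19, 4.80 and 10.1) and none in PER-117.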

How the data were processed

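RUNX2 and H3K27ac ChIP-seq of KARPAS-45 and PER-117 gave 4 peak lists, 1 per line and antibody. The 3 input libraries have no list and were not analysed here. The labels name an input for each line and a further H3K27ac input for PER-117 only. Per the submitters' processing notes, STAR 2.4.2a, MACS2 and hg38 were used; the sources used here do not give roles or thresholds. The authors deposited for each peak a display score, a fold enrichment (a linear ratio) and −log10 p and q values. Read depth was not analysed here, so a longer list may come from depth or antibody as well as from the cells. The precision of the peak calls is unknown. The H3K27ac lists also end at different values. Their lowest −log10 q was 0.43 in KARPAS-45 against 1.01 in PER-117, and their lowest fold was 1.00 in KARPAS-45 against 1.63 in PER-117.

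Several summits of 1 RUNX2 interval were joined to the summit of highest fold, so 46275 KARPAS-45 lines became 42911 intervals and 23043 PER-117 lines became 21027, on chromosomes 1 to 22 and X. Spans came from RefSeq (GRCh38.p14, the patch release of the same build) and start sites and strands from its promoter table. Peaks overlapping by 1 bp or more were called shared, a summit inside an H3K27ac region acetylated, and a peak within 1 kb of either span end a gene-end peak. Exons and introns were not resolved. Computation used Python 3.11.15, numpy 2.4.6 and pandas 2.3.3, and the overlap code was tested on simulated intervals. The alternatives were stricter q values, lists limited to equal size, other flanks and a summit-distance rule; an H3K27ac limit by −log10 q was added after the data were seen. All 10 genes are named; of the other pathway genes (68 of 69 matched by symbol), up to 4 per role with gene-end RUNX2 in both lines, ranked by the lower fold, and up to 3 per role in 1 line only, in alphabetical order, were eligible. Results for a few of the listed genes are not reported here. The genes and lists were chosen with earlier results of these data known.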

Additional observations from a re-analysis of the deposited data

How the results depend on the processing

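No paired analysis was possible because there was 1 library per line and antibody. Over 11 alternatives, 70 values were recomputed, of which 46 kept their value within 1.5 times or within their interval and 24 moved. The 46 include PER-117 values under limits set on a KARPAS-45 list alone, which could not change. The tally is therefore not a measure of robustness. With RUNX2 peaks at a −log10 q of 10 or more, the windows held 51 peaks in KARPAS-45 against 25 in PER-117, and 6 of the 10 genes had a gene-end peak in KARPAS-45 against 0 in PER-117. With the KARPAS-45 RUNX2 list limited to the PER-117 number, KARPAS-45 had 50 window peaks against 59 in PER-117, which turned the order, and the shared share was 50% in KARPAS-45 versus 42.4% in PER-117. With H3K27ac at a −log10 q of 2 or more, PER-117 had 120 regions and 67.6% of KARPAS-45 summits were acetylated. With the KARPAS-45 H3K27ac list limited by width to the PER-117 covered length, KARPAS-45 had 19 regions and 323 kb against 346 kb in PER-117, and 48.6% of its summits were acetylated (25.6% of the list). These values follow region width, since only regions of 6.10 kb or more stay. A limit by the highest −log10 q, chosen after the data were seen, left 57 regions and 232 kb in KARPAS-45, 5 members with gene-end H3K27ac and 31.4% of its summits acetylated. Without flanks, there were 42 RUNX2 peaks, 65 regions and 269 kb in KARPAS-45, and 26 peaks, 109 regions and 208 kb in PER-117. With 100 kb flanks KARPAS-45 had 181 regions. Counting peaks as shared only with summits within 100 bp gave 25.7% in KARPAS-45 against 45.8% in PER-117. Stricter lists and narrower windows hold fewer intervals by construction. Beyond that the cause was not tested. Shares of all genes with a gene-end peak or region were not computed under the alternatives, so those counts are not results about these genes.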

Other observations

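Several neighbours of the NOTCH pathway genes carried gene-end RUNX2 in both lines. Their folds are likewise given without ranks and not compared between the lines. PPIF, the mitochondrial cyclophilin beside ZMIZ1, had folds of 17.2 in KARPAS-45 versus 11.6 in PER-117. NOC2L, beside HES4, had 16.6 in KARPAS-45 against 6.05 in PER-117. LTC4S, beside MAML1, had 10.8 in KARPAS-45 versus 7.08 in PER-117, and CANX, a chaperone of the endoplasmic reticulum whose end lies next to the MAML1 start site, shared the promoter peak with it (6.12 in KARPAS-45 against 4.80 in PER-117). ISG15, an interferon-induced ubiquitin-like gene in the HES4 window, had a peak in KARPAS-45 (6.56) and none in PER-117, with H3K27ac at a gene end in both lines. These windows hold other genes, so a peak in a window cannot be assigned to the NOTCH pathway gene from position alone.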
